A study of Mus musculus with 6 samples.

Results

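The genes described here make and control cell death: the BCL2 family, the caspases with their activators and inhibitors, and the death receptors with the kinases of necroptosis. The 39 members were chosen for their known function, with earlier results of these data known, and their symbols were matched to the Ensembl identifiers of the deposited files through GENCODE M21. All 39 were found among the 54886 genes listed in each library. GC-2spd cells, a mouse line made from spermatocytes, with BALB/c given as the strain background, were grown in DMEM with 10% FBS. The line was immortalised with the SV40 large T antigen and a temperature-sensitive form of p53, which both groups carry. The control group (0 μg/mL) received normal medium, to which the study's methods add PBS, and the PM2.5 group received 100 μg/mL of an urban particulate reference material suspended in PBS, each for 48 h. RNA was sequenced from 3 libraries per group. The question put to these genes was whether those that promote death and those that restrain it differed between the groups.

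Cells die by apoptosis along 2 routes that meet at the caspases, proteases that take the cell apart from within. In the mitochondrial route, BH3-only proteins sense damage and either block the guardians BCL2, BCL-XL and MCL1 or directly switch on BAX and BAK, which open pores in the outer mitochondrial membrane. Cytochrome c then leaves the mitochondrion and assembles with APAF1 into the apoptosome, which activates caspase-9. In the receptor route, ligands of the TNF family engage FAS, TNFR1 or the TRAIL receptor, and the adaptor FADD recruits caspase-8. When caspase-8 is held back, RIPK1 can instead engage RIPK3. RIPK3 then phosphorylates MLKL, which ruptures the plasma membrane in necroptosis. Germ cells of the testis are known for a high rate of apoptosis during normal spermatogenesis, with BAX among its mediators.

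Values are FPKM, the fragments assigned to a gene scaled by exon length and sequencing depth, and 1 FPKM value per gene and library was deposited. The reads behind them, recovered from the exon lengths, came to 18003197, 16209346 and 17511452 in control replicates 1, 2 and 3 and to 17000293, 17114012 and 17530613 in PM2.5 replicates 1, 2 and 3. Control replicate 2 stood apart from its group. Over 11884 genes whose mean FPKM reached 1, control replicates 1 and 3 had a Pearson's r of 0.992 on the log2(FPKM + 1) scale, and control replicate 2 had 0.742 and 0.745 with these, with genes not being independent replicates. Mitochondrially encoded genes held 14.5% of the reads of control replicate 2, against 1.65% to 1.95% in the other 5 libraries. PM2.5 replicate 3 also differed from its group, with an r of 0.950 and 0.958 with PM2.5 replicates 1 and 2, against 0.991 between these. With control replicates 1 and 3, PM2.5 replicate 3 had a higher r, 0.972 with each. Control replicate 2 had 0.779 and 0.774 with PM2.5 replicates 1 and 2. Fold changes are therefore given over all 6 libraries and without control replicate 2, and for 6 members (Bcl2l1, Bax, Bak1, Birc2, Tnfrsf12a and Casp12, which all passed in that fit and were picked without a rule, with values seen) also without PM2.5 replicate 3, while Bbc3, which that library moves most, did not pass (adjusted p = 0.0538 in limma). Other members did not pass that fit either, among them Mcl1, Casp8, Diablo, Tnfrsf10b, Bcl2 and Fas. The sample records do not say whether the libraries of a group came from separate cultures (the study describes its quantitative data in general as from 3 experiments), so the p-values measure only the spread between these samples, which may be technical. In RNA from whole cultures, fewer cells that express a gene and less RNA of it per cell cannot be told apart.

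The spermatocyte label was checked against 16 marker genes of meiosis. None of the 16 had a mean FPKM of 1 or more, 7 of them (Hormad1, Spo11, Rec8, Dazl, Mael, Piwil1 and Pgk2) were listed at 0 in every library, and their summed FPKM was between 0.0908 and 2.70 per library, with Sycp3 the most abundant in every library but PM2.5 replicate 1, where it was at 0. The 6 spermatid markers summed to at most 0.297. Of 10 fibroblast or peritubular markers, 6 passed that level, led by Col1a1 (412, 452 and 425 FPKM in control replicates 1, 2 and 3, and 435, 437 and 193 in PM2.5 replicates 1, 2 and 3). Thy1, Myh11, Tagln and Dcn did not pass, with at most 0.0257, 0.142, 0.502 and 0.104 FPKM in any library. Col1a2 (202, 199 and 201 against 135, 130 and 115) and Col3a1 (14.0, 17.8 and 13.6 against 9.58, 9.61 and 7.52) were lower in every PM2.5 library than in every control, as were 6.85% of all genes tested. Acta2 was above control replicates 1 and 3 but below control replicate 2 in all PM2.5 libraries. Pdgfra (16.6, 7.89 and 15.0 against 11.4, 12.1 and 14.0) and Pdgfrb (3.37, 3.35 and 3.77 against 4.06, 4.17 and 2.77) overlapped between the groups, as did Col1a1. The summed FPKM of the 10 was 689, 768 and 702 in the control and 654, 652 and 393 in the PM2.5 libraries, lowest in PM2.5 replicate 3. Of 8 Sertoli cell markers 1 passed (Gata4, 11.1 to 22.3 FPKM), and the list summed to between 12.3 and 23.8. Of 6 Leydig cell markers 1 passed (Star, 1.58 to 2.49 FPKM), with a sum of 1.74 to 2.59. Of 6 macrophage markers 2 passed (Cd14 and Cd68), while Adgre1 and Ptprc were at 0 in every library, and the list summed to 27.8 in control replicate 2, against 6.78 to 8.75 elsewhere. The cells are therefore named here by their line. The part of these marker lists in the results on death genes was not tested.

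A mean FPKM of 1 or more was reached by 37 of the 39 members, which were tested. The gene with the highest mean was Tnfrsf12a, a receptor of the TNF family, and the tested gene with the lowest was Casp1. In limma on log2(FPKM + 1), over all 11884 genes and with Benjamini-Hochberg adjustment, 0 of the 37 had an adjusted p under 0.05 across the 6 libraries, where 0.0926% of all genes did. At an unadjusted p under 0.05 there was 1 member, Ripk3, the kinase that commits a cell to necroptosis, beside 3.80% of all genes. The smallest adjusted p of a member was 0.875. With voom in limma on the recovered reads the counts were 0 and 1 as well, beside 0 and 403 of 11740 genes. Because 1 is added to each FPKM, genes of low abundance have a larger fold change than this scale shows.

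Without control replicate 2, again 0 of 37 members had a limma adjusted p under 0.05, where 0.993% of all genes did, and the smallest adjusted p of a member was 0.110. At an unadjusted p under 0.05 there were 8 members (21.6% of 37), beside 15.9% of all genes. Of these, 3 were higher in PM2.5-exposed cells (Bid, Cycs and Ripk3), beside 8.23% of all genes, and 5 were lower (Bcl2l11, Apaf1, Casp9, Xiap and Cflar), beside 7.63%. These 8 genes lie on both sides of the balance. The 3 higher genes promote death, as do Bcl2l11, Apaf1 and Casp9 among the lower ones, while Xiap and Cflar restrain caspases. Of the other libraries, leaving out PM2.5 replicate 3 gave 3 members at an unadjusted p under 0.05, beside 627 of all 11884 genes, and each of the remaining 4 gave 0, beside 197 to 397 genes, with 0 called in limma after adjustment in every case.

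The call depended on how the libraries that stand apart were treated. When PM2.5 replicate 3 was left out together with control replicate 2, a choice made after the values were seen that leaves 2 closely matching libraries per group, 23 of 37 members had a limma adjusted p under 0.05, beside 47.1% of all genes. Of the 23, 13 were higher and 10 lower, beside 2798 higher and 2804 lower of 11884 genes. With limma array weights, which give each library a weight from its own spread, 31 members passed across the 6 libraries, beside 68.2% of all genes. The estimate of these weights did not converge, and weights estimated gene by gene gave 26 members beside 55.1% (both estimates were kept after both results were seen). After removal of a smooth trend in GC content and exon length from each library, and without control replicate 2, 4 members passed (Cycs and Ripk3 higher, Bcl2l11 and Endog lower), beside 6.45% of all genes.

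**Figure D1:**
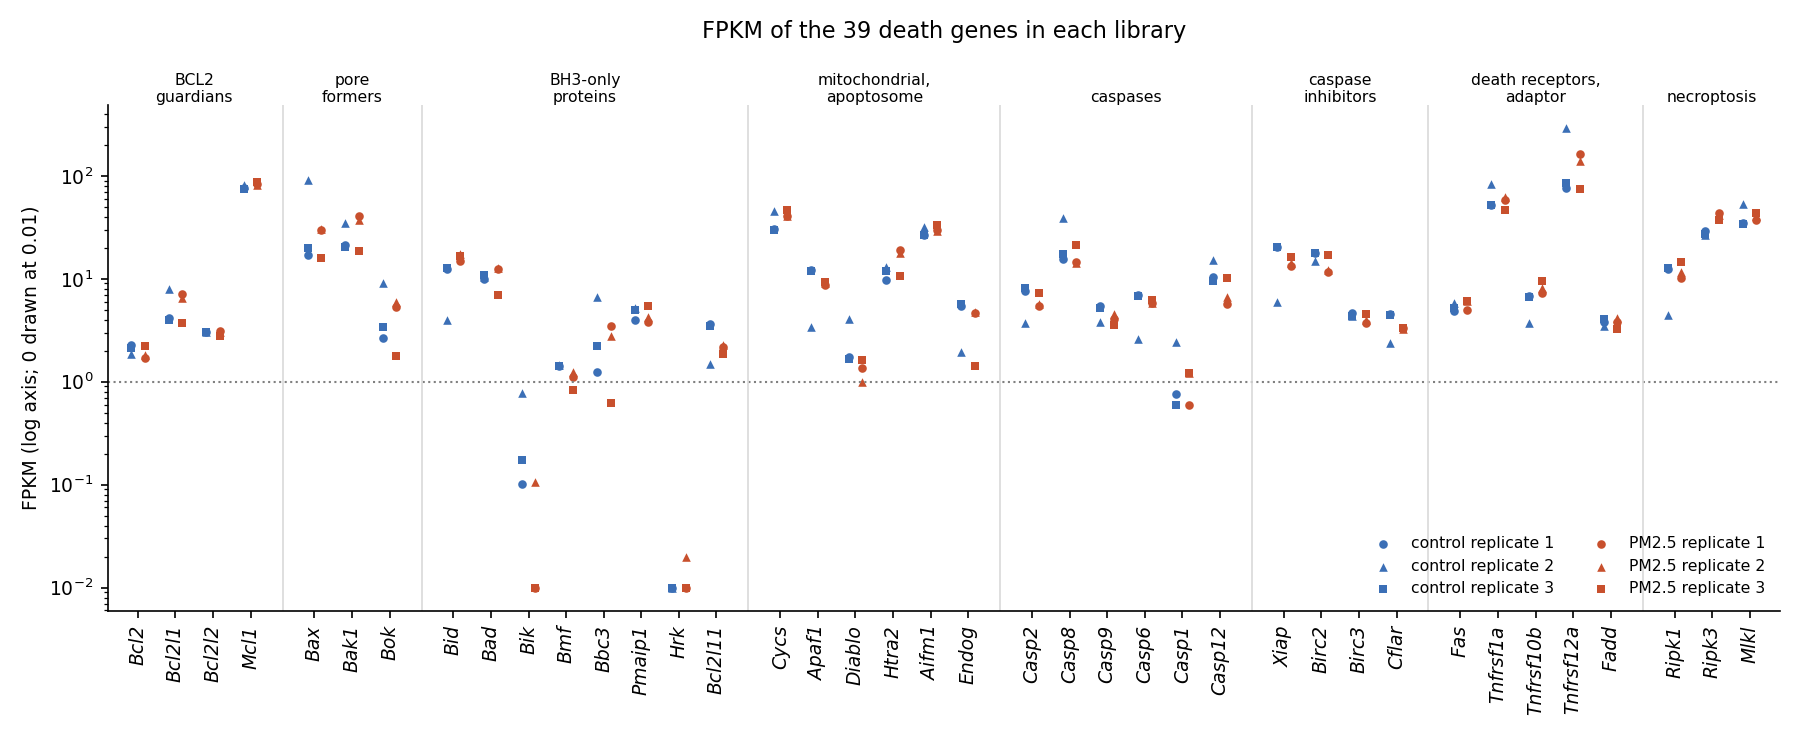
FPKM of each of the 39 members in each library, on a log axis, grouped by role, with control libraries in blue and PM2.5 libraries in orange; the symbol shape gives the replicate and the dotted line marks a mean FPKM of 1. The triangle of control replicate 2 lies far from the other control libraries for genes such as Bax (92.0 against 16.99 and 19.7) and Xiap (5.92 against 20.4 and 20.5).

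The 28 members that promote death and the 8 that restrain it (3 more, Tnfrsf1a, Tnfrsf12a and Ripk1, can do either) had medians near 0. Across the 6 libraries, 11 of the 26 tested pro-death genes had a log2 fold change above 0 and 15 below, with a median of -0.02. Of the 8 anti-death genes, 3 were above and 5 below, with a median of -0.05, beside a median of 0.02 over all genes tested. Without control replicate 2 the medians were 0.08 for the pro-death genes (14 above, 12 below) and -0.13 for the anti-death genes (2 above, 6 below), beside -0.01 over all genes. The pro-death median therefore changed its sign with 1 library. Another scaling, in which the FPKM of each library has the same sum, moved the median of all genes to 0.26 across the 6 libraries. Relative to that, the pro-death median was -0.05 and the anti-death median -0.10, and without control replicate 2 they were 0.09 and -0.12 relative to the median of all genes. These are descriptions of lists, with no test.

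The 3 PM2.5 values lay all above or all below the 3 control values in 6 members (16.2% of 37), beside 15.2% of all genes tested. In 4 members they lay above (Mcl1, Bid, Tnfrsf10b and Ripk3), beside 8.35% of all genes, and in 2 below (Bmf and Diablo), beside 6.85%. For 1 gene, an exact permutation test of 3 against 3 libraries, two-sided, cannot go below p = 0.1. Without control replicate 2 the count was 18 of 37, beside 37.3% of all genes, and without PM2.5 replicate 3 it was 14, beside 33.2%. Control replicate 2 held the highest or the lowest FPKM of the 6 libraries in 22 of the 37 members, and PM2.5 replicate 3 in 19, while over all genes tested these shares were 83.2% and 40.3%.

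**Figure D2:**
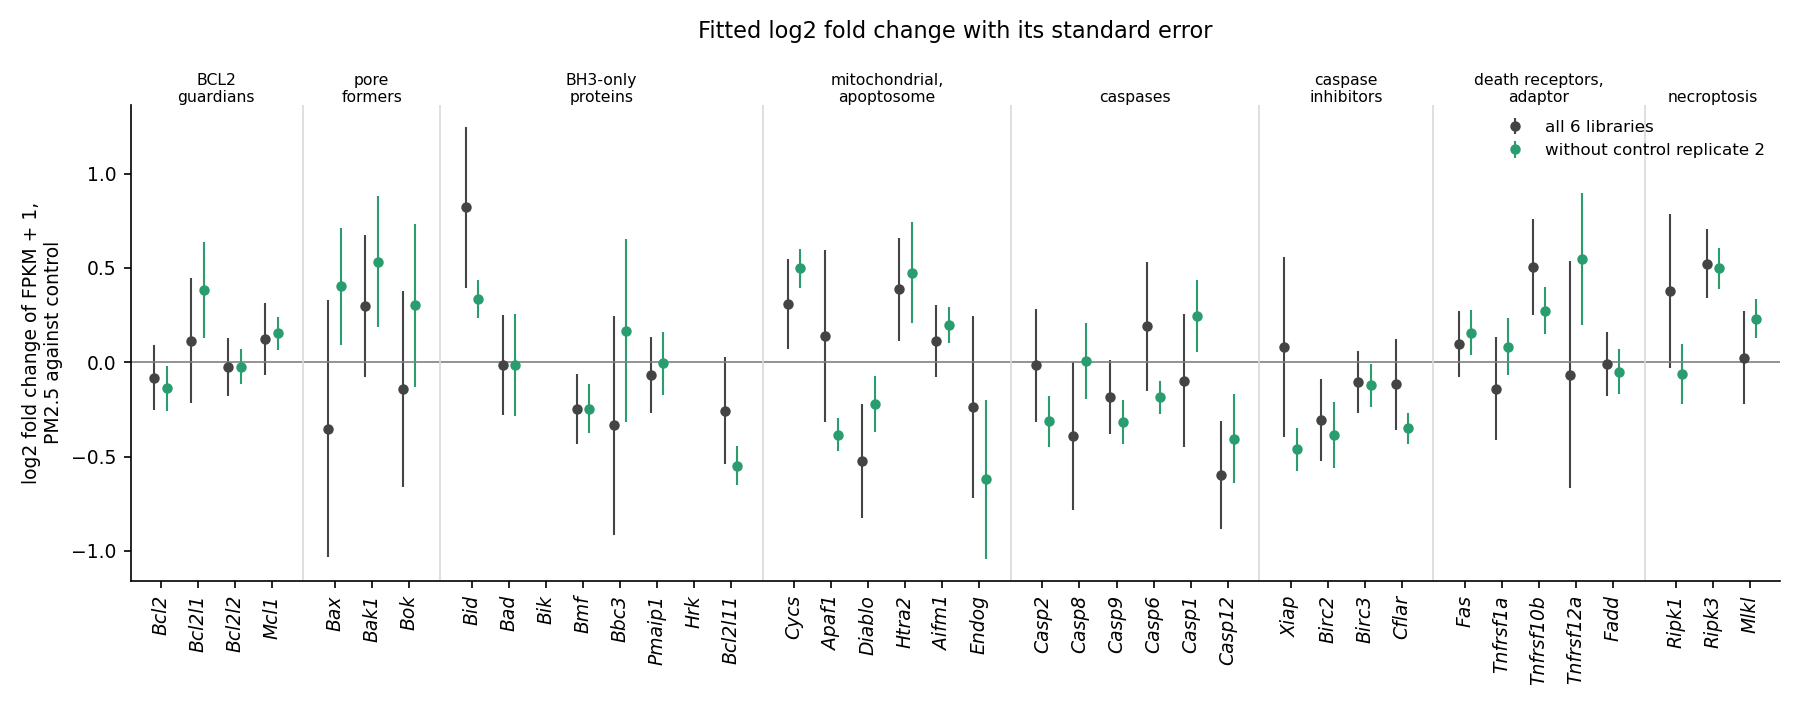
Log2 fold change of FPKM + 1 in PM2.5-exposed against control cells for the 37 members tested, fitted in limma over all 6 libraries (dark) and without control replicate 2 (green); bars are standard errors. The sign differs between both fits in 11 members, among them Bax (-0.35 and 0.40), Apaf1 (0.14 and -0.38) and Xiap (0.08 and -0.46).

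Promoters were available from RefSeq (GRCm38.p6) for 35 of the 39 members, and those of Ripk3, Cycs, Apaf1 and Bax are shown, since the groups did not overlap for Ripk3, Cycs and Apaf1 had some of the smallest p-values without control replicate 2, and Bax is a usual readout of the mitochondrial route. The 250 bases before each RefSeq gene start, which differs by some bases from the GENCODE gene ends printed for some of these genes, were searched on both strands for GCGTG, the core of the element bound by the aryl hydrocarbon receptor, which polycyclic aromatic hydrocarbons of particles are known to activate, and for GCATGCG, part of the element of nuclear respiratory factor 1, a regulator of mitochondrial genes. Both motifs are in capitals, which on the other strand read CACGC and CGCATGC, and overlapping matches of the second on both strands run together. All 4 genes lie on the minus strand, and each sequence is read 5′ to 3′ on that strand, from chr14:55788858-55789107 (Ripk3), chr6:50566570-50566819 (Cycs), chr10:91082744-91082993 (Apaf1) and chr7:45466899-45467148 (Bax).
Ripk3: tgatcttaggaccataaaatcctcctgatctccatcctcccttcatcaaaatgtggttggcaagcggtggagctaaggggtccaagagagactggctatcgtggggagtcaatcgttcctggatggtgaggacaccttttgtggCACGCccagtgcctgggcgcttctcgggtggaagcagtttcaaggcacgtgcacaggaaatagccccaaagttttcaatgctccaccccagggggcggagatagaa
Cycs: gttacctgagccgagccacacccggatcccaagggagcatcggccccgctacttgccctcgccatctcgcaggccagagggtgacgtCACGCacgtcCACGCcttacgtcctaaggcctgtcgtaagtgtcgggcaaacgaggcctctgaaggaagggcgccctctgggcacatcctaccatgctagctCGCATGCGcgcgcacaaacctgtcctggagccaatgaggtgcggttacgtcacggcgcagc
Apaf1: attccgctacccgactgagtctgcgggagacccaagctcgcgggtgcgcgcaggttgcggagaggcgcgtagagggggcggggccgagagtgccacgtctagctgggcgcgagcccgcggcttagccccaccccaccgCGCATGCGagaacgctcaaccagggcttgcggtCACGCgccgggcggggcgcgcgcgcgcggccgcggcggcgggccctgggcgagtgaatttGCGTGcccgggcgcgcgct
Bax: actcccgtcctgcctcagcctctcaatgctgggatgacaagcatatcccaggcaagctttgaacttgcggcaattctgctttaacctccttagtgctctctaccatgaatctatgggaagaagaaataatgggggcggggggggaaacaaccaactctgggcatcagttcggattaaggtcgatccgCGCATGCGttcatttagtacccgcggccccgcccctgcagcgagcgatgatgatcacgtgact
The first motif occurs 1 time in the window of Ripk3, 2 times in those of Cycs and Apaf1 and not in that of Bax. It was found in at least 1 promoter of 16 of the 35 members, and in 28.2% of all 32851 promoters against 44.7% of the 47 promoters of members. The second occurs in the windows of Cycs, Apaf1 and Bax but not of Ripk3, in 5 of the 35 members (also Aifm1 and Fadd), and in 3.02% of all promoters against 10.6% of the 47 promoters of members. Some members have more than 1 promoter, and windows of Bbc3 overlap in part, so the 47 promoters are not independent. The shares were not tested, and the GC content of the promoters was not taken into account. A match describes letters in a window, not a bound site.

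Among the guardians, Mcl1 was by far the most abundant per length and Bcl2 the scarcest. The FPKM of Mcl1, whose short-lived protein restrains BAK and BIM, was 76.9, 80.6 and 74.6 in control replicates 1, 2 and 3 and 83.5, 82.1 and 87.6 in PM2.5 replicates 1, 2 and 3. Each PM2.5 value exceeded each control value, and control replicate 2 did not stand apart for this gene. The log2 fold change was 0.12 (SE 0.19, limma adjusted p = 0.879) across the 6 libraries and 0.15 (SE 0.09, limma adjusted p = 0.458) without control replicate 2, so the difference was small and did not pass the test. Bcl2, the founding member of the family, had 2.25, 1.85 and 2.14 FPKM in the control and 1.71, 1.82 and 2.23 in the PM2.5 libraries, with overlapping groups. Its log2 fold change was -0.08 (SE 0.17, limma adjusted p = 0.901), and -0.14 (SE 0.12, limma adjusted p = 0.610) without control replicate 2. Bcl2l1, which encodes BCL-XL, had 4.17, 7.88 and 3.95 FPKM in the control and 7.07, 6.55 and 3.74 in the PM2.5 libraries. Its values split each group, with control replicate 2 near PM2.5 replicates 1 and 2, and PM2.5 replicate 3 near control replicates 1 and 3. For Bcl2l1 the log2 fold change was 0.11 (SE 0.33, limma adjusted p = 0.922) and 0.38 (SE 0.25, limma adjusted p = 0.515) without control replicate 2. Without PM2.5 replicate 3 as well Bcl2l1 had 0.62 (SE 0.07, limma adjusted p = 0.00195), in a fit where 47.1% of all genes passed. Bcl2l2 (BCL-W) lay between 2.80 and 3.10 FPKM in all 6 libraries.

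The pore formers varied more within the groups than between them. Bax (minus strand, chromosome 7, 45461697 to 45466898) had 16.99, 92.0 and 19.7 FPKM in control replicates 1, 2 and 3 and 30.0, 30.7 and 15.9 in PM2.5 replicates 1, 2 and 3. Control replicate 2 was far above every other library, PM2.5 replicates 1 and 2 lay above control replicates 1 and 3, and PM2.5 replicate 3 lay below all controls. The log2 fold change was -0.35 (SE 0.68, limma adjusted p = 0.896) across the 6 libraries and 0.40 (SE 0.31, limma adjusted p = 0.574) without control replicate 2, so its sign rested on that library. Without PM2.5 replicate 3 as well it was 0.70 (SE 0.08), with a limma adjusted p of 0.00176 after Benjamini-Hochberg adjustment, in a fit where 47.1% of all genes passed. Bak1, which encodes BAK, likewise was lowest in PM2.5 replicate 3, with 21.5, 34.8 and 20.2 FPKM in the control and 40.5, 37.6 and 18.8 in the PM2.5 libraries. For Bak1 the log2 fold change was 0.30 (SE 0.38, limma adjusted p = 0.875), 0.53 (SE 0.35, limma adjusted p = 0.511) without control replicate 2 and 0.87 (SE 0.06, limma adjusted p = 0.000619) without PM2.5 replicate 3 as well. Bok, a less studied relative, lay between 1.77 and 9.09 FPKM, lowest in PM2.5 replicate 3 and highest in control replicate 2. Of the sequence of Bak1, 25.5% of the exon bases overlap genes on the opposite strand, and for Bax 12.2% overlap another gene on the same strand, so that their reads are in part uncertain.

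Of the 8 BH3-only genes 6 passed the filter. Bid encodes the link from caspase-8 to the mitochondrion, and had 12.4, 3.95 and 12.8 FPKM in control replicates 1, 2 and 3 and 14.9, 17.2 and 16.5 in PM2.5 replicates 1, 2 and 3. The groups did not overlap, control replicate 2 was far below the other controls, and 17.7% of the exon bases overlap Bcl2l13 on the opposite strand. The fold change, on the log2 scale, was 0.82 (SE 0.43, limma adjusted p = 0.875) with all libraries and 0.34 (SE 0.10, limma adjusted p = 0.225) without control replicate 2. Bcl2l11, which encodes BIM, a potent activator of BAX and BAK, went the other way, with 3.604, 1.47 and 3.47 FPKM in the control and 2.17, 2.27 and 1.87 in the PM2.5 libraries. Each PM2.5 value was below control replicates 1 and 3 and above control replicate 2. For BIM the log2 fold change was -0.26 (SE 0.28, limma adjusted p = 0.875) across 6 libraries and -0.55 (SE 0.10, limma adjusted p = 0.110) without control replicate 2, the smallest adjusted p of any member in that fit.

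The other 4 BH3-only genes tested had log2 fold changes below 0 across the 6 libraries, of which only that of Bbc3 was above 0 without control replicate 2. Bmf, which responds to loss of attachment, had 1.44, 1.45 and 1.44 FPKM in the control and 1.12, 1.23 and 0.832 in the PM2.5 libraries, without overlap and with a log2 fold change of -0.25 (SE 0.18, limma adjusted p = 0.875), and of -0.25 (SE 0.13, limma adjusted p = 0.433) without control replicate 2. Bbc3 and Pmaip1, which encode the p53 targets PUMA and NOXA, lay at 0.625 to 6.64 and 3.77 to 5.44 FPKM with overlapping groups. Bad lay at 6.92 to 12.7, with PM2.5 replicate 3 lowest. Bik and Hrk did not pass the filter. Bik had 3, 16 and 5 reads in the control and 0, 3 and 0 reads in the PM2.5 libraries (0 to 0.775 FPKM), mostly at or near the floor of 3 reads. Hrk had 0, 0 and 0 reads in the control and 0, 2 and 1 in the PM2.5 libraries, under that floor, and was not detectable at this depth.

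The proteins that leave the mitochondrion and the apoptosome did not move as a unit. Cycs encodes cytochrome c (minus strand, chromosome 6, 50562563 to 50566538), and had 30.1, 45.1 and 29.9 FPKM in control replicates 1, 2 and 3 and 41.0, 40.9 and 46.8 in PM2.5 replicates 1, 2 and 3. Every PM2.5 library was above control replicates 1 and 3, while control replicate 2 lay among the PM2.5 libraries. This gave a log2 fold change of 0.31 (SE 0.24, limma adjusted p = 0.875) across the 6 libraries and of 0.50 (SE 0.10, limma adjusted p = 0.123) without control replicate 2. Some of its reads are uncertain, because 29.4% of the 31-base sequences of Cycs are shared with other genes, chiefly Gm10053.

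Apaf1, the scaffold of the apoptosome (minus strand, chromosome 10, 90989311 to 91082770), had 12.1, 3.39 and 11.99 FPKM in the control and 8.61, 9.05 and 9.34 in the PM2.5 libraries. The 3 PM2.5 values lay close together, under control replicates 1 and 3 and well above control replicate 2. Its log2 fold change of 0.14 (SE 0.45, limma adjusted p = 0.929) across the 6 libraries became -0.38 (SE 0.09, limma adjusted p = 0.143) without control replicate 2. Diablo, whose SMAC protein frees caspases from XIAP, had 1.73, 4.04 and 1.66 FPKM in the control and 1.35, 0.996 and 1.62 in the PM2.5 libraries, without overlap. The gap between PM2.5 replicate 3 and control replicate 3 was small, and 39.6% of its 31-base sequences are shared with other genes. Much of the log2 fold change of -0.52 (SE 0.30, limma adjusted p = 0.875) came from control replicate 2, without which it was -0.22 (SE 0.15, limma adjusted p = 0.518). Htra2, another XIAP antagonist, lay at 9.71 to 19.1 FPKM, highest in PM2.5 replicates 1 and 2, with 43.7% of its exon bases overlapping genes on the opposite strand. Aifm1, which encodes apoptosis-inducing factor, lay at 26.4 to 33.2 FPKM. Endog, a mitochondrial nuclease, lay at 1.41 to 5.69 FPKM and was low in PM2.5 replicate 3 (1.41) and control replicate 2 (1.96). Its reads are in part uncertain, because 35.65% of the exon bases of Endog overlap Spout1 on the opposite strand.

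The initiator caspases differed in level and in which library stood apart. Casp8, the protease of the receptor route, had 15.5, 38.5 and 17.3 FPKM in control replicates 1, 2 and 3 and 14.5, 14.3 and 21.4 in PM2.5 replicates 1, 2 and 3. Control replicate 2 was the highest and PM2.5 replicate 3 the next. With all libraries the log2 fold change was -0.39 (SE 0.39, limma adjusted p = 0.875), and it was 0.01 (SE 0.20, limma adjusted p = 0.992) without control replicate 2. Casp9, the protease of the apoptosome, had 5.38, 3.78 and 5.17 FPKM in the control and 4.09, 4.52 and 3.55 in the PM2.5 libraries. All PM2.5 values lay under control replicates 1 and 3, with a log2 fold change of -0.19 (SE 0.20, limma adjusted p = 0.875), and of -0.32 (SE 0.12, limma adjusted p = 0.298) when control replicate 2, as low as the PM2.5 libraries, was left out. Casp2 (3.76 to 8.06 FPKM) and the effector Casp6 (2.61 to 6.99) were lowest in control replicate 2. Of the inflammatory caspases, Casp1 lay at 0.593 to 2.42 FPKM. Casp12, which sits at the endoplasmic reticulum, had 10.4, 15.3 and 9.59 FPKM in the control and 5.67, 6.65 and 10.1 in the PM2.5 libraries, with overlap through PM2.5 replicate 3. Casp12 had a log2 fold change of -0.60 (SE 0.29, limma adjusted p = 0.875), and of -0.41 (SE 0.24, limma adjusted p = 0.467) without control replicate 2. Without PM2.5 replicate 3 as well Casp12 had -0.62 (SE 0.09, limma adjusted p = 0.00355), in a fit where 47.1% of all genes passed.

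All 4 caspase inhibitors had a log2 fold change below 0 once control replicate 2 was left out, with a median of -0.37, beside -0.11 with it. Xiap, which binds and blocks caspases 3, 7 and 9, had 20.4, 5.92 and 20.5 FPKM in control replicates 1, 2 and 3 and 13.2, 14.3 and 16.4 in PM2.5 replicates 1, 2 and 3. All PM2.5 libraries were below control replicates 1 and 3 and above control replicate 2, and the log2 fold change went from 0.08 (SE 0.48, limma adjusted p = 0.959) to -0.46 (SE 0.12, limma adjusted p = 0.173) without that library. Cflar encodes c-FLIP, the decoy that holds back caspase-8. It had 4.52, 2.38 and 4.46 FPKM in the control and 3.35, 3.27 and 3.30 in the PM2.5 libraries. As for Xiap, all PM2.5 values lay below control replicates 1 and 3 and above control replicate 2. In the fits Cflar had a log2 fold change of -0.12 (SE 0.24, limma adjusted p = 0.899), and of -0.35 (SE 0.08, limma adjusted p = 0.161) without control replicate 2. Birc2, a ubiquitin ligase of TNF receptor signalling also called cIAP1, had 17.9, 15.0 and 17.8 FPKM in the control and 11.7, 12.2 and 16.9 in the PM2.5 libraries, with overlap through control replicate 2 and PM2.5 replicate 3. The log2 fold change of Birc2 was -0.31 (SE 0.22, limma adjusted p = 0.875) and -0.39 (SE 0.18, limma adjusted p = 0.377) without control replicate 2. Without PM2.5 replicate 3 as well Birc2 had -0.54 (SE 0.05, limma adjusted p = 0.00120), in a fit where 47.1% of all genes passed. Its neighbour Birc3 lay at 3.68 to 4.66 FPKM.

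Tnfrsf12a, the receptor of the cytokine TWEAK, had the highest mean FPKM of all members and a pattern like that of Bax. It had 76.5, 292 and 85.4 FPKM in control replicates 1, 2 and 3 and 162, 138 and 74.4 in PM2.5 replicates 1, 2 and 3, so that PM2.5 replicate 3 lay under the lowest control. With this spread the log2 fold change was -0.07 (SE 0.60, limma adjusted p = 0.972) and 0.55 (SE 0.35, limma adjusted p = 0.501) without control replicate 2. Without PM2.5 replicate 3 as well Tnfrsf12a had 0.88 (SE 0.09, limma adjusted p = 0.00182), in a fit where 47.1% of all genes passed. Tnfrsf10b, the mouse TRAIL receptor, had 6.76, 3.75 and 6.58 FPKM in the control and 7.33, 8.12 and 9.502 in the PM2.5 libraries, without overlap. The TRAIL receptor had a log2 fold change of 0.50 (SE 0.26, limma adjusted p = 0.875) across the 6 libraries and of 0.27 (SE 0.13, limma adjusted p = 0.379) without control replicate 2. Fas itself had 4.82, 5.78 and 5.14 FPKM in the control and 4.94, 6.10 and 6.02 in the PM2.5 libraries. Its groups overlapped, with a log2 fold change of 0.10 (SE 0.18, limma adjusted p = 0.889), and of 0.16 (SE 0.12, limma adjusted p = 0.561) without control replicate 2. Tnfrsf1a, which encodes TNFR1, lay at 46.4 to 83.4 FPKM and the adaptor Fadd at 3.26 to 4.19, both with overlapping groups. Of their ligands, Fasl lay at or under 0.0291 FPKM and Tnf at or under 0.141. Tnfsf10, which encodes TRAIL, had 13, 4 and 22 reads in the control and 3, 1 and 2 in the PM2.5 libraries, lower without overlap but under the filter and not tested, while Tnfsf12, which encodes TWEAK, lay at 4.602 to 29.4.

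Among the necroptosis genes, Ripk3 had a log2 fold change of similar size whichever library was left out (0.48 to 0.59). Its unadjusted limma p was not under 0.05 without control replicate 1, control replicate 3, PM2.5 replicate 1 or PM2.5 replicate 2. Nor was it under 0.05 with an equal sum of FPKM or with a replicate block. Ripk3 (minus strand, chromosome 14, 55784995 to 55788865) had 29.4, 26.9 and 27.3 FPKM in control replicates 1, 2 and 3 and 43.2, 41.5 and 36.9 in PM2.5 replicates 1, 2 and 3. The groups did not overlap, with means of 27.8 ± 1.33 for the control and 40.5 ± 3.26 for the PM2.5 libraries (SD, n = 3 each), and neither control replicate 2 nor PM2.5 replicate 3 left its group. The log2 fold change was 0.52 (SE 0.18, limma adjusted p = 0.875) with all libraries and 0.50 (SE 0.11, limma adjusted p = 0.133) without control replicate 2. No 31-base sequence of Ripk3 is shared with another gene. Mlkl, the executioner that RIPK3 phosphorylates, had 34.6, 53.4 and 34.1 FPKM in the control and 37.5, 40.4 and 43.8 in the PM2.5 libraries. Its log2 fold change was 0.02 (SE 0.25, limma adjusted p = 0.975), and 0.23 (SE 0.10, limma adjusted p = 0.364) without control replicate 2, the library with the highest value. Ripk1, which can signal survival or death, had 12.4, 4.42 and 12.6 FPKM in the control and 10.2, 11.6 and 14.5 in the PM2.5 libraries.

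The ratio of Bax to its guardians, a usual readout of the balance, was computed within each library from FPKM. Bax over Bcl2 was 7.54, 49.7 and 9.21 in control replicates 1, 2 and 3 and 17.6, 16.9 and 7.13 in PM2.5 replicates 1, 2 and 3. Control replicate 2 lay far above, PM2.5 replicates 1 and 2 above control replicates 1 and 3, and PM2.5 replicate 3 below them, so that the groups overlapped. The difference between the group means of the log2 ratio was -0.23 over the 6 libraries. It was 0.63 without control replicate 2 and 0.19 without PM2.5 replicate 3. Leaving out control replicate 1 gave -0.73 and control replicate 3 -0.59. Leaving out PM2.5 replicate 1 gave -0.46 and PM2.5 replicate 2 -0.43. Bax over Bcl2l1 was 4.07, 11.7 and 4.99 in the control and 4.25, 4.69 and 4.25 in the PM2.5 libraries. Apart from control replicate 2, this ratio lay within a narrow range, since Bax and Bcl2l1 moved alike between libraries, and the difference of its log2 means was -0.50 and, without control replicate 2, -0.04. The summed FPKM of the 28 pro-death genes over that of the 8 anti-death genes was 2.13, 3.51 and 2.23 in the control and 2.76, 2.80 and 2.33 in the PM2.5 libraries. No test was run on these ratios.

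**Figure D3:**
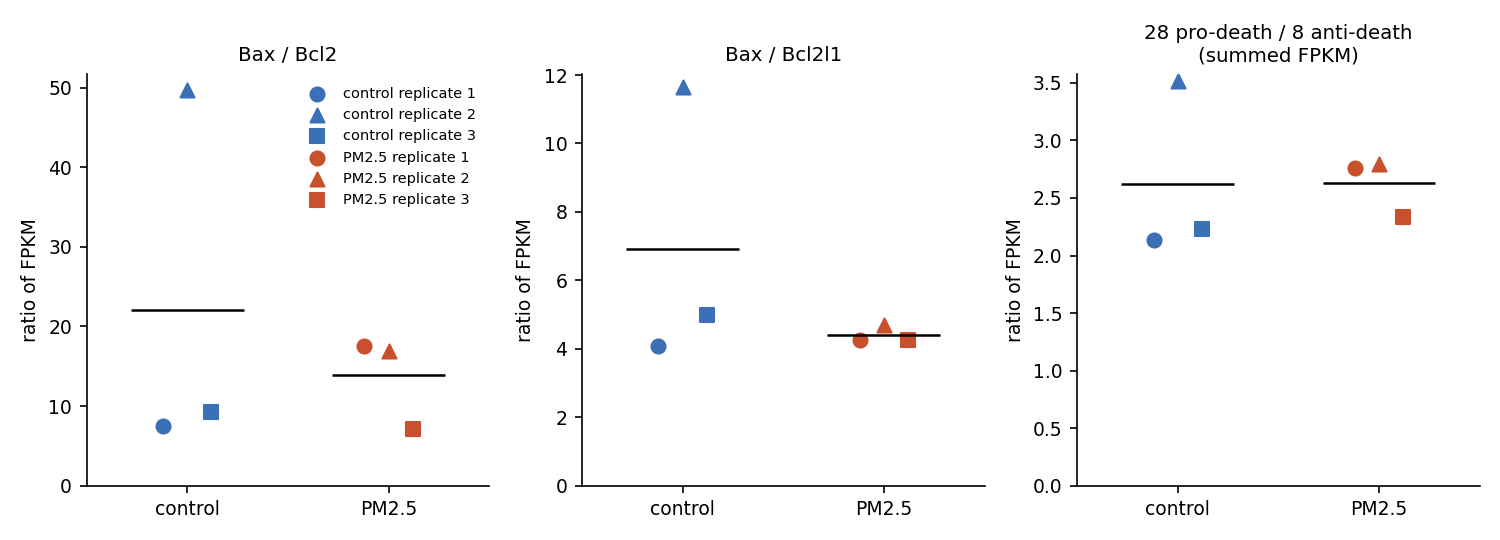
Ratio of FPKM in each library for Bax over Bcl2, Bax over Bcl2l1, and the summed 28 pro-death over the summed 8 anti-death genes; points are libraries, bars the group means, and the axes start at 0. Control replicate 2 is the highest point in each panel (49.7, 11.7 and 3.51).

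PM2.5 replicate 3 stood apart along the GC content of the transcripts, while control replicate 2 did so more weakly along GC content and exon length. Over the 37 members tested, which share their libraries, the deviation of PM2.5 replicate 3 from PM2.5 replicates 1 and 2 had a Spearman's rho of -0.87 with the GC content of the exons, and of -0.70 over 11735 genes. The members with the highest GC content, Bbc3 (68.6%), Endog (64.3%) and Bok (62.1%), had log2 deviations of -1.34, -1.25 and -1.25, and Casp12 (39.2%) had 0.64. The deviation of control replicate 2 from control replicates 1 and 3 had a rho of 0.20 with GC content and of -0.64 with exon length over the members, and of 0.34 and -0.30 over all genes. It exceeded 1 on the log2 scale in either direction in 12 of 37 members (32.4%) and in 40.8% of all genes. Bax (2.27), Tnfrsf12a (1.84), Bbc3 (1.51) and Bok (1.33) were highest, and Xiap (-1.63), Apaf1 (-1.57) and Bid (-1.46) lowest. The part of RNA quality or library preparation in these differences was not tested.

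**Figure D4:**
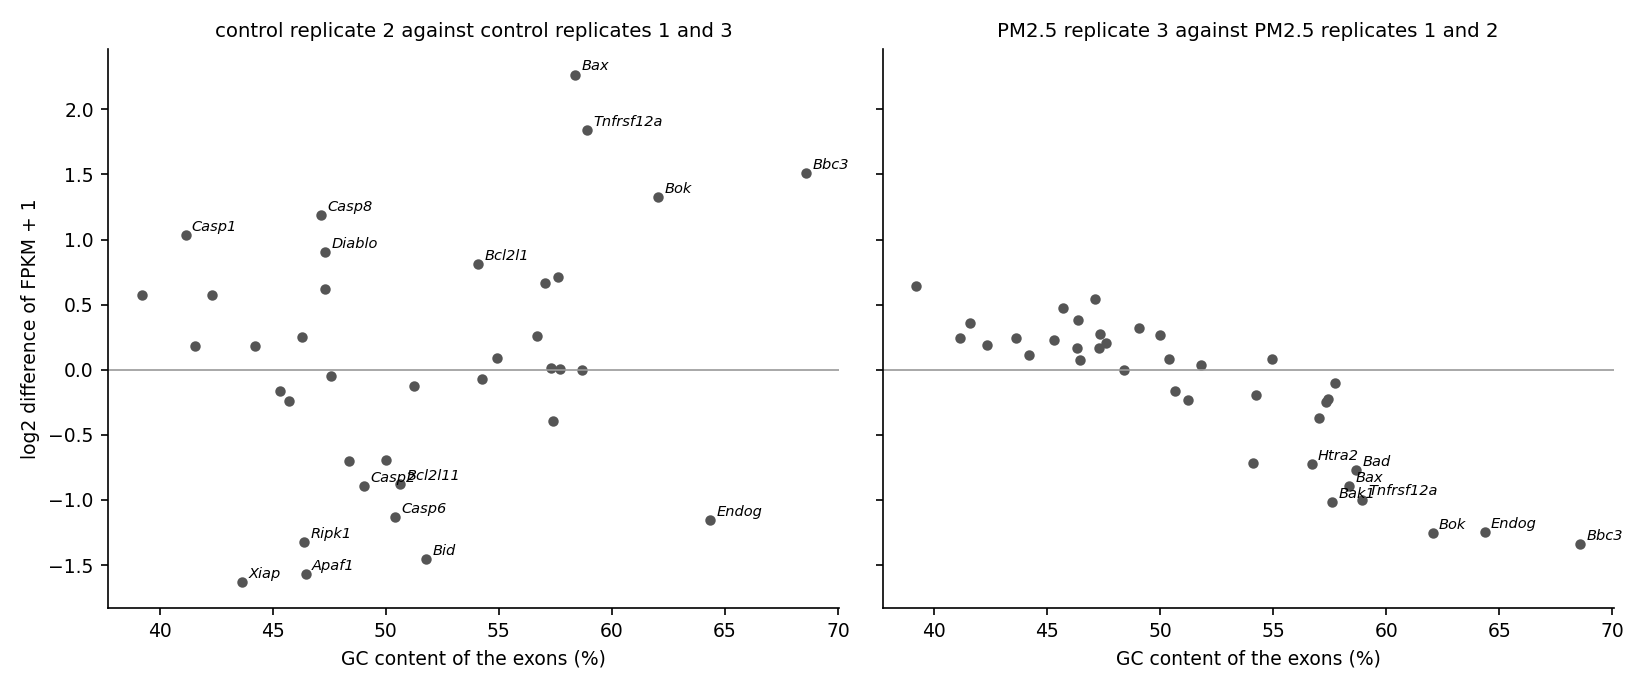
Log2 difference of FPKM + 1 against the GC content of the exons (%) for the 37 members tested, for control replicate 2 against control replicates 1 and 3 (left) and PM2.5 replicate 3 against PM2.5 replicates 1 and 2 (right). Each point is a gene; in the right panel values go down with GC content, from 0.64 for Casp12 to -1.34 for Bbc3.

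Of 71 other genes of the pathway, listed by family, 47 passed the filter. Across the 6 libraries 0 of the 47 had a limma adjusted p under 0.05 (beside 0.0926% of all genes), and 2 had an unadjusted p under 0.05 (beside 3.80% of all genes), both lower in PM2.5-exposed cells. Without control replicate 2, 1 passed after adjustment (beside 0.993% of all genes) and 11 had an unadjusted p under 0.05 (beside 15.9% of all genes), of which 3 were higher and 8 lower (beside 8.23% and 7.63% of all genes). The gene that fell was Xaf1, an antagonist of XIAP. It had 20.2, 52.7 and 19.4 FPKM in the control and 7.40, 7.42 and 7.89 in the PM2.5 libraries, each PM2.5 value below every control. Its log2 fold change was -1.28 (SE 0.09, limma adjusted p = 0.0103) without control replicate 2 and -1.73 (SE 0.41, limma adjusted p = 0.590) with it.

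Zbp1, the nucleic acid sensor that can recruit RIPK3, had 1.54, 4.52 and 1.10 FPKM in the control and 0.349, 0.479 and 0.408 in the PM2.5 libraries. Each PM2.5 value lay below every control, while its partner Ripk3 lay above (log2 fold change of Zbp1 -1.13, SE 0.39, limma adjusted p = 0.875 with all libraries, and -0.71, SE 0.14, limma adjusted p = 0.113 without control replicate 2). Bnip3 and Bnip3l encode mitophagy receptors of the BCL2 family. Bnip3 had 94.5, 26.3 and 95.7 FPKM in the control and 40.9, 45.7 and 68.0 in the PM2.5 libraries, Bnip3l had 35.5, 19.5 and 33.2 against 17.3, 19.8 and 24.3, and Foxo1, a transcription factor with Bcl2l11 among its known targets, had 5.69, 2.06 and 5.94 against 3.29, 3.40 and 4.11. The PM2.5 values of these 3 genes were below control replicates 1 and 3, while control replicate 2 was as low or lower. Of the 3 genes that were higher, Tnfaip3, the NF-κB feedback inhibitor A20, had 6.40, 1.70 and 5.83 FPKM in the control and 8.50, 8.43 and 8.66 in the PM2.5 libraries. Gsdme, the gasdermin cut by caspase-3, had 2.30, 2.63 and 2.19 against 3.04, 3.26 and 3.98. These 2 genes had groups that did not overlap. With all libraries their log2 fold changes were 0.89 (SE 0.41, limma adjusted p = 0.875) and 0.39 (SE 0.17, limma adjusted p = 0.875), and without control replicate 2, which was low for Tnfaip3, 0.42 (SE 0.09, limma adjusted p = 0.128) and 0.44 (SE 0.12, limma adjusted p = 0.211). Ddit3, the stress factor CHOP, had 7.96, 27.1 and 6.99 FPKM in the control and 9.67, 8.59 and 10.3 in the PM2.5 libraries.

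**Figure D5:**
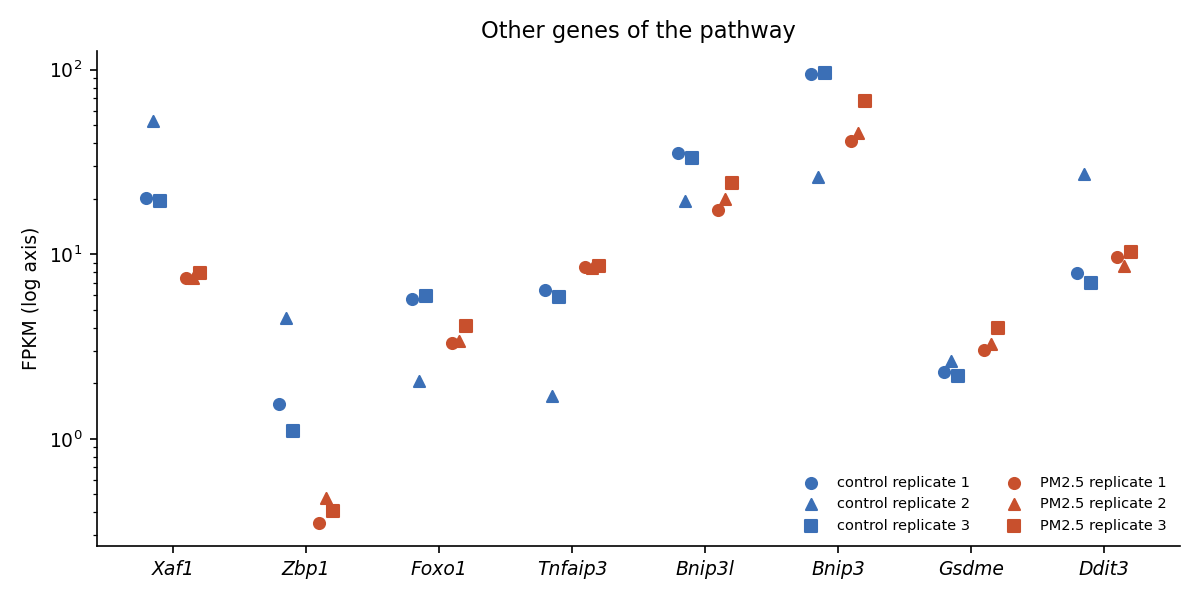
FPKM on a log axis in each library for the 8 other pathway genes with the smallest p in each direction without control replicate 2; blue points are control and orange points PM2.5 libraries, with the shape giving the replicate. Xaf1 and Zbp1 are lower in every PM2.5 library than in every control, and Tnfaip3 and Gsdme are higher.

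Among the regulators, Trp53 was very abundant, at 1306, 405 and 1371 FPKM in control replicates 1, 2 and 3 and 1205, 1172 and 1035 in PM2.5 replicates 1, 2 and 3. Cdkn1a, the classical p53 target, lay at 3.32 to 5.04 FPKM with overlapping groups. The temperature-sensitive p53 transgene of the line may map to Trp53, and the files do not separate the introduced from the endogenous transcript. Atf4, the transcription factor above CHOP in the integrated stress response, named here after its values were seen, had 64.9, 630.2 and 67.0 FPKM in the control and 140 and 136 in PM2.5 replicates 1 and 2, but 71.5 in PM2.5 replicate 3. Each PM2.5 value of Atf4 was above control replicates 1 and 3, and control replicate 2 was far above all other libraries.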

How the data were processed

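The authors mapped the reads of GC-2spd cells with HISAT2 2.0.5, counted them with featureCounts 1.5.0-p3 and deposited FPKM per gene, and the submitters' processing notes name mm9. Exon lengths of GENCODE M21 on GRCm38 nevertheless turned the deposited FPKM into whole reads (within 0.1) for 98.3% to 98.7% of the values under 50 reads in each library. By gene it held for 55.5% on chromosome 18, 53.9% on 19 and 83.1% on 17, against 99.9% elsewhere. It failed for Bad, Fas and Pmaip1, whose reads are not given, though voom used their values rounded to whole reads. The authors' scaling between libraries was kept. limma 3.58.1 in R 4.3.3, with trend and robust options and statmod 1.5.0, was fitted to log2(FPKM + 1) for all 11884 genes whose mean FPKM reached 1, with Benjamini-Hochberg adjustment, with and without control replicate 2, and tested on simulated data. A test on counts was planned had counts been deposited. The members and lists were chosen with earlier results of these data known. Genes were given with every value where they had an unadjusted p under 0.05 in either fit, groups that did not overlap with an absolute log2 fold change of at least 0.5, or the highest mean of their role, together with Bax, Bcl2, Bcl2l1, Mcl1, Casp8, Casp9 and Fas. Bmf, Bak1, Casp12, Ripk1, Bik, Hrk, Trp53 and Atf4 were named beyond that rule or for completeness. Of the 71 other pathway genes, Septin4 was not matched by that symbol, and 1 more gene of that list is not reported here. Shared sequence was counted in 31-base steps. Whether counting used the strand is not given in the sources used here. Alternatives were other pseudocounts (0.1 and 0.5), filters, scalings, array weights, voom, a replicate block, leaving out each library, and, added after seeing the data, a GC content and exon length correction (splines with 5 degrees of freedom), array weights estimated gene by gene (run first, before the default estimate, which did not converge; both are kept), voom without control replicate 2, and leaving out PM2.5 replicate 3 as well. Python 3.11.15, numpy 2.4.6, pandas 2.3.3, scipy 1.17.1 and matplotlib 3.10.9 were used.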

Additional observations from a re-analysis of the deposited data

How the results depend on the processing

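Of 37 members tested, 0 were called across the 6 libraries, against 31 with array weights and 26 with weights estimated gene by gene. The 1 member at an unadjusted p under 0.05 became 4 with the GC content and exon length correction (728 of 11735 genes), 33 and 30 with both kinds of array weights (8423 and 7199 of 11884 genes), 0 with an equal sum of FPKM (313 genes), 0 with a replicate block (335 genes) and 0 to 8 on leaving out 1 library. Library numbers were not taken as pairs: after removal of group means, libraries of the same number had r of -0.28 (1), 0.18 (2) and 0.25 (3), values that the libraries standing apart largely set, so they do not settle the pairing. Without control replicate 2, the 0 called became 4 with the correction and 23 without PM2.5 replicate 3, and the 8 at an unadjusted p under 0.05 became 17 (3007 of 11735 genes), 30 (6592 of 11884) and, at a mean FPKM of at least 5, 5 of the 23 members left (1291 of 7807). The pro-death median of -0.02 was 0.17 and 0.16 with array weights, 0.21 with an equal sum, 0.13 at the higher filter, 0.11 with voom, and -0.058 to 0.082 leaving out 1 library. The value of 0.08 without control replicate 2 was 0.066 with the correction, 0.13 without PM2.5 replicate 3, 0.023 with an equal sum, 0.21 at the higher filter, 0.077 with a pseudocount of 0.1 and 0.081 with voom. The anti-death median of -0.05 was -0.15 and -0.18 with array weights, 0.16 with an equal sum, 0.10 at the higher filter, 0.054 with voom and -0.13 to -0.016 leaving out 1 library. Without control replicate 2 it was -0.13, and -0.20 without PM2.5 replicate 3, -0.19 with an equal sum, -0.17 with the pseudocount, -0.17 with voom, -0.084 with the correction and -0.12 at the higher filter. Groups that did not overlap numbered 6 to 18 leaving out 1 library. An equal sum and voom move the median of all genes to 0.26 and 0.17, so signs that turn positive under them follow from the scaling. Of the 19 genes named by rule, signs reversed for Bcl2 (equal sum 0.092, voom 0.0077), Bcl2l1 (leaving out 1 library -0.036 to 0.38), Bax (array weights 0.65 and 0.68, leaving out -0.78 to 0.40), Apaf1 (-0.37 and -0.39, -0.38 to 0.40), Casp8 (-0.63 to 0.0061), Casp9 (equal sum 0.036), Xiap (correction -0.019, array weights -0.49 and -0.51, -0.46 to 0.355), Cflar (equal sum 0.073, -0.35 to 0.0037), Tnfrsf12a (correction 0.11, array weights 0.72 and 0.80, equal sum 0.24, quantile normalization 0.22, voom 0.066, -0.41 to 0.55) and Mlkl (-0.085 to 0.23). Of the other members, Bok, Bbc3, Casp6, Casp1, Tnfrsf1a and Ripk1 reversed without control replicate 2. The cause was not tested.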
